A study of Ovis aries with 20 samples.

Results

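The effect of testosterone exposure before birth on the granulosa cells of adult sheep was examined in 9 RNA sequencing libraries, 4 of controls and 5 of prenatal testosterone (prenatal T) animals, chosen by their label as granulosa cells out of 19 libraries of granulosa and theca cells in the deposited table. Each library came from 1 animal, in which granulosa cells had been microdissected from several antral follicles on cryosections of 14 µm and pooled. The mothers of prenatal T animals had received testosterone propionate at 100 mg (1.2 mg/kg) into the muscle, 2 times a week from day 30 to day 90 of pregnancy, and the mothers of controls had received vehicle. All offspring were 21 months old, at the close of the second breeding season, and both groups alike had received prostaglandin F2α at 10 mg on 2 occasions 11 days apart, with ovaries taken 18 h after the last. Breed, genotype, the time of day of collection and the size of the follicles are not given in the labels. The comparison asks which genes of the granulosa layer differ in adult life after excess testosterone in fetal life.

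Granulosa cells line the antral follicle, surround the oocyte and take theca androgen as the substrate for oestradiol, which they make with aromatase under follicle-stimulating hormone (FSH). They also secrete anti-Müllerian hormone, inhibins and activins, and are coupled to each other by gap junctions. Their layer holds no blood vessels, and a basal lamina parts it from the vascular theca layer. Excess testosterone in fetal life is an established sheep model of features of polycystic ovary syndrome, among them disturbed cycles and many persisting follicles.

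Values are normalized counts, and every level below is given in the order of control sheep 244, 246, 268 and 224, followed by prenatal T sheep 210, 230, 276 and 315 and, apart, sheep 209. Differences between the groups are those of mean log2 (normalized count plus 1), prenatal T minus control, ± the SE of a limma fit. The fit was made over 14724 of the 28524 genes in the table, those that reached a value of 10 in no fewer than 5 of the 9 libraries. The libraries held 12.7 to 26.0 M recovered reads on genes, 13.6 to 26.0 M in controls and 12.7 to 16.1 M in prenatal T animals.

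Libraries differed in ways the treatment does not name. The library of sheep 209 lacked follicle markers, with FSHR, AMH, LHCGR, CYP19 and CYP11A1 at 0 and the epithelial genes KRT19 and CDH1 at 34371 and 15271, against at most 416 and 292 elsewhere, so that its label as granulosa cells is not borne out by its markers and results are given with and without it. The mean log2 level of 17 granulosa markers was 5.96 there and 11.54 to 12.74 in the other 8 libraries. Its correlation with those libraries across tested genes was 0.633 to 0.739, where the other 28 pairs stood at 0.906 to 0.966 (genes are not independent replicates). Reads on 616 small nucleolar RNA (snoRNA) genes made up 0.0499 to 0.0835% of the libraries of controls 244, 268 and 224 and prenatal T sheep 210, and 0.281 to 0.638% of those of control 246 and prenatal T sheep 209, 230, 276 and 315. The same animals fell on the same sides in theca cells. This split is uneven between the groups, with 3 controls and 1 prenatal T animal on the lower side and 1 control and 4 prenatal T animals on the higher. Its part in the results was not tested beyond the values of a fit with the 2 sets as a covariate, given beside the leading genes. Theca markers (20 genes) had a mean log2 level of 9.33 to 10.24 in controls and 8.69 to 10.02 in prenatal T animals without sheep 209, and their summed normalized counts were 41231 to 93845 and 26678 to 52530, with 7.67 and 33086 in sheep 209.

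**Figure D1:**
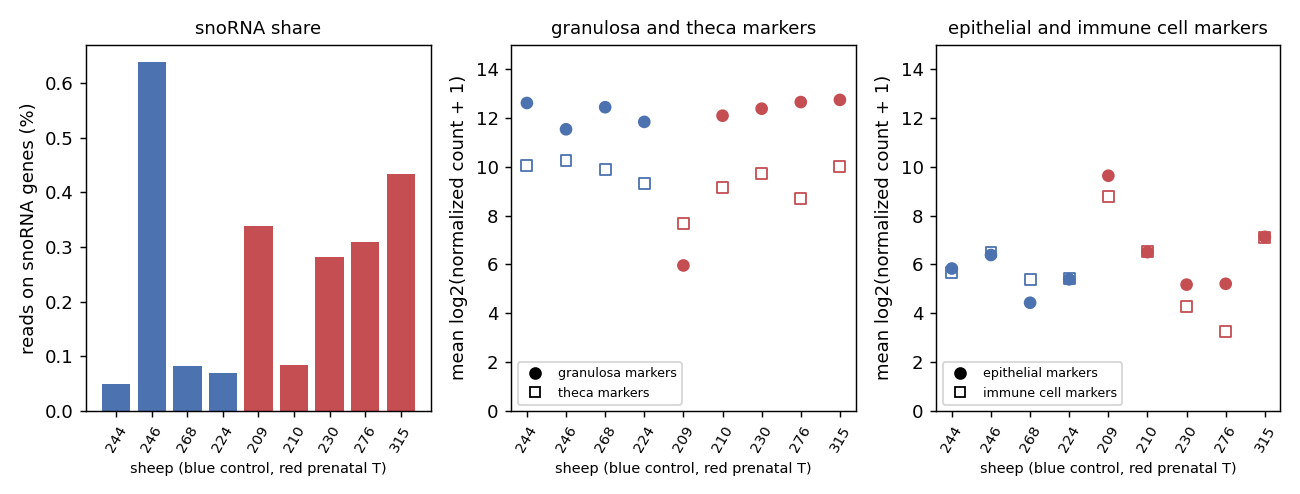
Share of reads on snoRNA genes in percent (left, bars) and mean log2 (normalized count plus 1) of marker lists (middle and right, 1 symbol per library) for the 9 granulosa libraries, controls in blue and prenatal T animals in red. Sheep 209 has the lowest granulosa markers and the highest epithelial and immune cell markers, and the snoRNA share is above 0.1% in 1 of 4 controls and 4 of 5 prenatal T animals.

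No gene passed an adjusted p of 0.05 by limma, with all libraries (smallest adjusted p = 0.875, Benjamini-Hochberg over 14724 genes) or without sheep 209 (0.714), so that 0% was called in either case. At an unadjusted p under 0.05 by limma, 622 genes (4.22%) stood apart, 174 higher (1.18%) and 448 lower (3.04%) in prenatal T animals. Without sheep 209 there were 1018 (6.91%), 288 higher (1.96%) and 730 lower (4.96%). With TMM scaling of recovered reads, limma gave 232 higher and 373 lower with all libraries and 366 and 604 without sheep 209. The excess on the lower side was absent with all libraries in the count models, with 500 higher and 335 lower by edgeR and 611 and 489 by DESeq2. Without sheep 209 it was there in both, with 416 and 602 by edgeR and 506 and 669 by DESeq2. At an adjusted p under 0.05 edgeR called 0 in either case. All 5 prenatal T values lay above all 4 controls for 106 genes (0.72%) and below them for 249 (1.69%), or 169 (1.15%) and 394 (2.68%) without sheep 209.

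Other fits called a few genes. DESeq2 on whole reads recovered from the table called 16 genes (5 higher, 11 lower, 0.115% of the 13929 it adjusted) and 32 without sheep 209 (5 higher, 27 lower, 0.248% of 12918), of which 10 were shared, or 62.5% of the former and 31.2% of the latter. Among the shared genes were FGD5, CCN3, its second entry CCN3_1, SH3D21, EPHB4, SPPL3 and TIGD5, all lower, and SLC41A2 and ENOX2, both higher. In 1 limma model of both layers with the animal as a replicate block, FGD5 alone passed (adjusted p = 0.0160), and without sheep 209 FGD5 (0.0112), CTTNBP2 (0.0117) and FBXW4 (0.0270), all lower in prenatal T animals. With the snoRNA sets as a covariate limma called 0 genes, and 236 had an unadjusted p under 0.05 (680 without sheep 209).

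FGD5, an exchange factor that activates the small GTPase Cdc42 and is best known from endothelium, had the smallest p. It stood at 766, 515, 422 and 371 in controls and 191, 182, 162 and 123 in prenatal T animals, and at 147 in sheep 209. The highest prenatal T value was thus 191 and the lowest control value 371, and the groups did not overlap. The difference was -1.64 ± 0.24, or -1.61 ± 0.25 without sheep 209 (95% interval -2.17 to -1.06), and -1.57 with the snoRNA sets in the fit. Within the set of lower snoRNA share (3 controls, 1 prenatal T animal) the difference was -1.37 on the log2 scale and within the other set (1 control, 4 prenatal T animals) -1.75. In theca cells FGD5 differed by -0.41, and the difference between the layers' contrasts had an adjusted p of 0.0833, or 0.164 without sheep 209. Its level was 806 ± 128 (SD, n = 5) in theca controls and 519 ± 176 (SD, n = 4) in granulosa controls. Theca markers had a median difference of -0.80 in the granulosa libraries, and -0.38 without sheep 209. The part of theca RNA in the FGD5 result was not tested. Endothelial markers (20 genes) had a median difference of -0.22, and -0.21 without sheep 209, with 16 and 17 members below 0. At an unadjusted p under 0.05 there were 0 in either fit, against 4.22% and 6.91% of all genes. The summed normalized counts of these markers were 4066 to 6759 in controls, 3139 to 6909 in prenatal T animals without sheep 209 and 9872 in sheep 209. Their part in the FGD5 result was not tested.

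CCN3, a secreted matricellular protein of the CCN family that restrains growth in several cell types, had the largest difference among the 20 genes of smallest p, and the table holds it as 2 entries. The entry CCN3 stood at 652, 4509.6, 1652 and 1119 in controls and 271, 254, 74.5 and 262 in prenatal T animals, with 158 in sheep 209, a difference of -3.04 ± 0.58 (-2.99 ± 0.61 without sheep 209). CCN3_1 stood at 333, 2112, 801 and 574 and 94.7, 103, 52.7 and 136, with 44.9 in sheep 209, and differed by -3.23 ± 0.54 (-3.03 ± 0.52). Control 246 was highest in both entries and control 244 lowest among controls, yet neither group reached into the other. Since the entries carry 1 symbol and reads may have been split between them, they are not independent of each other. The covariate fit gave -3.40 and -3.67, and in theca cells the differences were -0.63 and -0.95. Of 19 tested CCN and matricellular genes, 2 were at an unadjusted p under 0.05, which are these entries. Over all genes 4.22% were at that threshold with all libraries and 6.91% without sheep 209. The median of the list was 0.035 (-0.018 without sheep 209) against -0.015 and -0.014 over all genes.

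SH3D21, a protein with SH3 domains of little known function, stood at 1079.7, 731, 521 and 356 in controls and 193, 237, 104 and 75.8 in prenatal T animals, with 73.6 in sheep 209. The lowest control lay above the highest prenatal T animal, sheep 230, and the difference was -2.34 ± 0.45 (-2.16 ± 0.43 without sheep 209, -2.19 with the snoRNA sets). EPHB4, the receptor tyrosine kinase for the membrane ligand ephrin-B2, stood at 1948, 2436, 1985 and 2033 and 1624, 1343, 1172 and 1242, with 1265 in sheep 209. Values within each group were close together, and the difference of -0.66 ± 0.13 (-0.65 ± 0.13) was small but without overlap. In theca cells EPHB4 differed by -0.45, and the difference between the layers' contrasts had an adjusted p of 0.915.

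The giant nuclear envelope protein SYNE1, which ties the nucleus to the cytoskeleton, stood at 30296, 25403, 23249 and 20377 in controls and 11439, 18371, 13168 and 8333 in prenatal T animals, with 9190.4 in sheep 209, a difference of -1.08 ± 0.25 (-0.996 ± 0.24). The intramembrane protease SPPL3, which trims glycosyltransferases of the Golgi, stood at 1094, 1432, 941 and 1069 and 725, 734, 761 and 631, with 563 in sheep 209. Both genes were separate between the groups in all 9 libraries. So were TIGD5 (-0.48 ± 0.11) and WDR73 (-0.97 ± 0.22), also among the 10 of smallest p on the lower side. Without sheep 209 their differences were -0.46 ± 0.10 and -0.88 ± 0.20.

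SLC41A2, a magnesium transporter, headed the genes higher in value in prenatal T animals. It stood at 144, 137, 114 and 75.6 in controls and 171, 262, 313 and 349 in prenatal T animals, with 268 in sheep 209. Sheep 210 was the lowest prenatal T animal and control 224 the lowest of all, and the difference was 1.21 ± 0.28 (1.20 ± 0.28 without sheep 209, 0.89 with the snoRNA sets). ENOX2, a cell surface NADH oxidase, stood at 138, 137, 123 and 106 and 222, 284, 169.6 and 225, with 242 in sheep 209, and differed by 0.84 ± 0.20 (0.81 ± 0.20). Neither gene overlapped between the groups. Of 31 tested metal ion transporters SLC41A2 was the 1 higher gene at an unadjusted p under 0.05, with and without sheep 209. Over all genes 1.18% and 1.96% were higher at that threshold.

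A pair of enzymes at the entry to glycolysis followed. Hexokinase HK2, which phosphorylates glucose, stood at 619, 446, 394 and 679 in controls and 724, 791, 948 and 1050.3 in prenatal T animals, with 1266 in sheep 209, a difference of 0.84 ± 0.22 (0.74 ± 0.20 without sheep 209). The isomerase GPI, the next enzyme of the pathway, stood at 1906, 1969, 2598 and 2084 and 2628, 2766, 2754 and 2877, with 3361 in sheep 209, and differed by 0.43 ± 0.13 (0.38 ± 0.11). All prenatal T values of both were above all control values, although for GPI sheep 210 and control 268 were close.

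XK, a membrane transport protein first known from red blood cells, stood at 164, 62.9, 126 and 184 in controls and 298, 303, 236 and 214 in prenatal T animals, with 292 in sheep 209. Control 246 was far below the other controls, and the difference was 1.09 ± 0.32 (1.05 ± 0.33), or 1.49 with the snoRNA sets. NIFK, which binds the proliferation protein Ki-67 in the nucleolus, and NMD3, the export adaptor of the large ribosomal subunit, differed by 0.39 ± 0.10 and 0.57 ± 0.16 (0.36 ± 0.10 and 0.48 ± 0.13) with no overlap. NMD3 stood at 527, 642, 669.7 and 669.7 and 741, 1016, 912 and 834, with 1188 in sheep 209. In theca cells NMD3 differed by 0.78, in the same direction. The molybdenum enzyme MARC2 (0.47 ± 0.14) did not overlap, while CCDC69 (1.62 ± 0.45) and the oligosaccharyltransferase subunit TMEM258 (0.49 ± 0.14) overlapped by 1 library. Their differences without sheep 209 were 0.43 ± 0.13, 1.36 ± 0.39 and 0.45 ± 0.14.

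**Figure D2:**
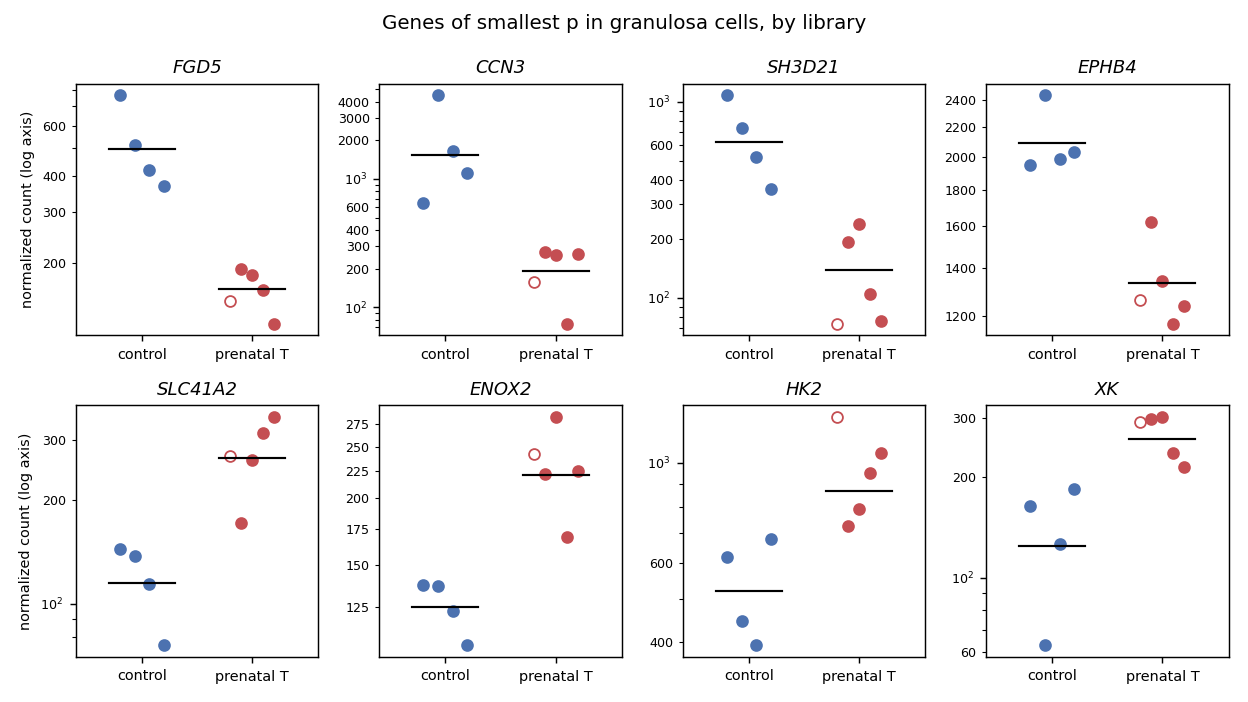
Normalized counts by library (log axes) of 4 genes lower and 4 genes higher in value in prenatal T animals. Points are libraries, the open point is sheep 209, and lines are means of log2 values without it. In all 8 panels the 4 controls and the 5 prenatal T animals occupy separate ranges, and FGD5 runs from 123 to 191 in prenatal T animals against 371 to 766 in controls.

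Leaving out sheep 209 brought forward further genes, and for some of them that library lay on the other side. CTTNBP2, a binding partner of cortactin, stood at 443, 366, 186 and 262 in controls, at 117, 96, 59.6 and 93.5 in prenatal T animals and at 1045 in sheep 209. Its difference was -1.73 ± 0.31 without sheep 209 (95% interval -2.43 to -1.03) and -1.02 ± 0.76 with it. FBXW4, an F-box protein of ubiquitin ligases, stood at 129, 168, 117 and 148 and 42, 40.2, 48.1 and 75.8, with 234 in sheep 209, a difference of -1.46 ± 0.26 (-1.02 ± 0.51 with all libraries). For both, sheep 209 was the highest of all 9 libraries and the other 4 prenatal T animals were below every control. The difference between the layers' contrasts without sheep 209 had adjusted p-values of 0.11 and 0.147. In theca controls CTTNBP2 and FBXW4 stood at 453 ± 98.7 and 288 ± 61.4 (SD, n = 5). Their means in granulosa controls were 314 ± 114 and 140 ± 22.3 (SD, n = 4). The part of theca RNA in these differences was not tested.

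LDLRAD4, an inhibitor of TGF-beta signalling at the receptor, stood at 991, 1112, 773 and 709 in controls and 532, 409, 293 and 471 in prenatal T animals, with 139 in sheep 209, and differed by -1.08 ± 0.21 without sheep 209 (-1.40 ± 0.38 with it). The palmitoyltransferase ZDHHC14 differed by -0.79 ± 0.16 (-1.20 ± 0.44). Both lacked overlap with or without sheep 209. The genes called by DESeq2 without sheep 209 included CTTNBP2, FBXW4, LDLRAD4 and ZDHHC14, with adjusted p-values of 0.000478, 0.00453, 0.0097 and 0.018.

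On the higher side without sheep 209, carboxypeptidase M (CPM), a membrane enzyme found on granulosa cells, stood at 176, 116, 304 and 146 in controls and 378, 416, 402 and 332 in prenatal T animals, with 23 in sheep 209. The difference was 1.13 ± 0.27 (0.33 ± 0.84 with all libraries). CLCN5, a chloride and proton exchanger of endosomes, stood at 462, 667, 563 and 578 and 783, 890.5, 848 and 938, with 300.3 in sheep 209, a difference of 0.62 ± 0.13 (0.31 ± 0.33). The 4 prenatal T animals lay above all controls for both, while sheep 209 lay below them. PLEK and TAGAP, both best known from blood cells, differed by 0.59 ± 0.14 and 1.28 ± 0.35 without sheep 209 (1.07 ± 0.50 and 2.31 ± 1.06 with it). They stood in sheep 209 at 17267 and 1873, against 3109 to 3370.0 and 37.9 to 71.1 in the other prenatal T animals. The exosome subunit EXOSC9 differed by 0.47 ± 0.13 (0.33 ± 0.19), and the matrix protease ADAMTS3 by 0.53 ± 0.15 (-0.49 ± 1.02). Immune cell markers had a median difference of 0.24 with all libraries, with 7 of 10 tested members above 0, and of -0.46 without sheep 209, with 1 of 10. With 1 further library left out the latter ran from -1.09 (without sheep 315) to 0.22 (without sheep 276). In either fit 0 members had an unadjusted p under 0.05, against 4.22% of all genes with all libraries and 6.91% without sheep 209.

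Several genes of the circadian clock had groups that did not overlap, on both arms of its loop. The clock is a feedback loop in which ARNTL (BMAL1) with CLOCK drives PER, CRY and NR1D genes, whose products hold ARNTL in check, and output factors such as DBP follow it. ARNTL stood at 245, 168, 167 and 229 in controls and 299, 259.6, 258 and 416 in prenatal T animals, with 368 in sheep 209, a difference of 0.66 ± 0.22 (0.60 ± 0.21 without sheep 209). DBP stood at 181, 205, 188 and 252 and 134, 119, 133 and 141, with 122 in sheep 209, a difference of -0.66 ± 0.18 (-0.64 ± 0.17). All 5 prenatal T values of ARNTL were above, and all 5 of DBP below, the 4 control values.

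The repressor NR1D2 (REV-ERB beta) stood at 1754, 2654, 1609 and 1795 in controls and 1455, 1509.6, 1147 and 1403 in prenatal T animals, with 1053 in sheep 209, and differed by -0.56 ± 0.18 (-0.48 ± 0.17). CRY2, a repressor of ARNTL and CLOCK, stood at 796, 718, 828.6 and 734 and 658, 570.2, 693 and 476, with 235 in sheep 209, and differed by -0.64 ± 0.30 (-0.37 ± 0.14). Both were without overlap. NR1D1 (REV-ERB alpha) differed by -0.96 ± 0.40 (-0.69 ± 0.30) and overlapped through sheep 210, at 142, 184, 135 and 164 and 158, 99.9, 58.4 and 90, with 36.8 in sheep 209. CRY2 and NR1D1 were chosen after their values were seen.

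Of 22 tested clock genes, 3 lay below and 1 above the controls with no overlap, where over all genes 1.69% did so below and 0.72% above. At an unadjusted p under 0.05 by limma, 3 were lower and 1 higher, against 3.04% and 1.18% of all genes. Without sheep 209 there were 5 and 1, against 4.96% and 1.96%. The median of the list was -0.18 (-0.19 without sheep 209). None passed the adjusted threshold. With the snoRNA sets in the fit the differences were 0.72 for ARNTL, -0.64 for DBP, -0.67 for NR1D2, -0.46 for CRY2 and -0.70 for NR1D1. Within the set of lower snoRNA share (3 controls, 1 prenatal T animal) NR1D1 differed by 0.11, and within the other set by -1.46 (-1.18 without sheep 209). ARNTL, DBP, NR1D2 and CRY2 kept their direction in both sets. In theca cells of the same animals ARNTL differed by 0.54 and DBP by -0.67, and the differences between the layers' contrasts had adjusted p-values of 0.974 and 0.983. The hour at which each ovary was taken is not given in the labels, and its part in these values was not tested.

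Markers of granulosa cells themselves gave opposite signs with and without sheep 209, which was set apart because its library lacked such markers. The change on leaving it out thus largely follows from that choice and is no separate result. With all libraries 1 of 17 markers lay above 0 with a median of -0.92, and without sheep 209 17 of 17 lay above 0 with a median of 0.35. Over all genes 48.3% lay above 0 with all libraries and 47.8% without sheep 209. In the latter fit 3 had an unadjusted p under 0.05, all higher, against 1.96% of all genes on the higher side. Mean log2 levels of the list overlapped, at 11.54 to 12.61 in controls and 12.09 to 12.74 in prenatal T animals without sheep 209. With 1 further library left out or with TMM scaling, the median without sheep 209 ran from 0.077 to 0.46. KITLG, the ligand by which granulosa cells signal to the oocyte and theca, stood at 1724, 1877, 1878 and 1874 in controls and 2430.0, 3035, 1942 and 2764 in prenatal T animals, with 148 in sheep 209. GJA1 (connexin 43), the main gap junction protein between granulosa cells, stood at 16775, 14489, 14771 and 13761 and 17488, 18192, 22302 and 27585, with 1729.5 in sheep 209. The 4 prenatal T animals lay above all controls for both, with differences of 0.45 ± 0.14 and 0.50 ± 0.17 without sheep 209, and these turned to -0.36 ± 0.82 and -0.22 ± 0.73 with it. SLC35G1, a solute carrier, differed by 0.89 ± 0.27 (-0.20 ± 1.11) and overlapped between the groups.

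VCAN, the matrix proteoglycan versican of follicular fluid and the cumulus, stood at 22231, 13991, 25663 and 20732 in controls and 28878, 38619, 40526 and 29873 in prenatal T animals, with 6757 in sheep 209. Its difference was 0.76 ± 0.22 without sheep 209 (0.29 ± 0.51 with it), and in theca cells without that animal 0.69. It was the 1 higher gene at an unadjusted p under 0.05 among 25 tested ovulation and cumulus genes without sheep 209, against 1.96% of all genes. The list's median was 0.17 without sheep 209 and 0.62 with it.

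**Figure D3:**
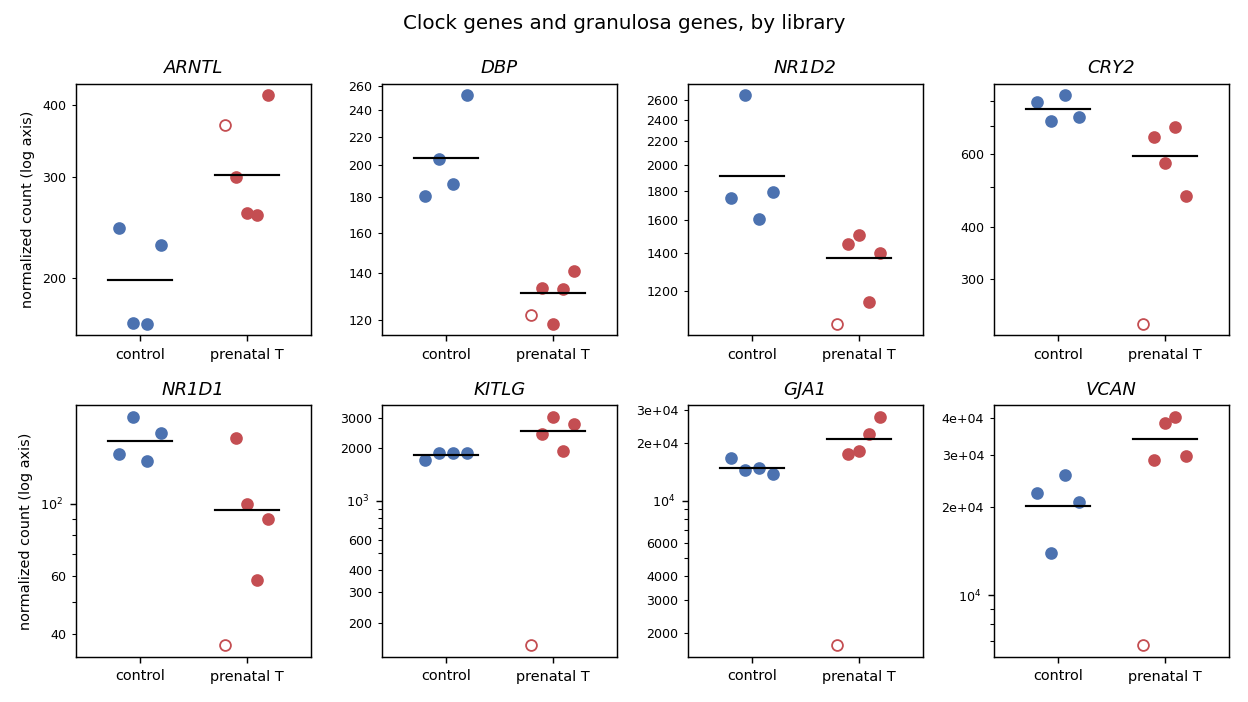
Normalized counts by library (log axes) of 5 clock genes and of KITLG, GJA1 and VCAN, drawn as points per library with sheep 209 open and lines at the means of log2 values without it. ARNTL, DBP, NR1D2 and CRY2 are separate between the groups in all 9 libraries, and KITLG, GJA1 and VCAN in the 8 without sheep 209, which has the lowest point of each.

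The receptors through which the follicle reads gonadotropins and steroids varied between animals with no difference past the test. FSHR, the FSH receptor, stood at 2185, 1873, 2172 and 1793 in controls and 1983, 2465, 3281 and 1105 in prenatal T animals, a difference of 0.038 ± 0.29 without sheep 209 (95% interval -0.61 to 0.68). LHCGR, the luteinizing hormone receptor that larger follicles gain, stood at 787, 567, 349 and 232 and 193, 565, 211 and 1802, a difference of 0.049 ± 0.69 (-1.51 to 1.61). Sheep 209 was at 0 for both, which moved the differences to -2.16 ± 2.20 and -1.72 ± 1.87. The oestrogen receptors ESR1 and ESR2 differed by -0.038 ± 0.19 (-0.47 to 0.39) and 0.29 ± 0.21 (-0.18 to 0.75), and the progesterone receptor PGR by 0.04 ± 0.30 (-0.64 to 0.72). With all libraries these were -0.21 ± 0.25, -1.09 ± 1.39 and 0.031 ± 0.29. The intervals of ESR1 and FSHR leave differences above 1 log2 unit out, and that of LHCGR does not.

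The coactivators NCOA3 and NCOA2, which join steroid receptors to the transcription machinery, were slightly lower in value without sheep 209. NCOA3 stood at 2441, 2453, 2181 and 2446 in controls and 2065, 1839.8, 1858 and 1931 in prenatal T animals, a difference of -0.31 ± 0.089, and NCOA2 differed by -0.26 ± 0.11. Neither overlapped among these 8 libraries, but sheep 209 was highest of all for both and brought the differences to -0.12 ± 0.21 and -0.12 ± 0.17. Of 23 tested receptors and cofactors these were the 2 at an unadjusted p under 0.05 without sheep 209, and 0 were with it. Over all genes 6.91% were at that threshold without sheep 209 and 4.22% with it. The list as a whole lay near 0, with 9 members above it and a median of -0.038 without sheep 209, and 10 and -0.033 with it.

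The insulin receptor INSR stood at 9930.0, 10578, 7289 and 9622 in controls and 9016, 6559.7, 6477 and 6674 in prenatal T animals, with 4129.8 in sheep 209. Sheep 210 stood among the controls, the others below all of them, and the difference was -0.38 ± 0.16 without sheep 209 (-0.74 to -0.022) and -0.54 ± 0.22 with it. IGF1R, the receptor of insulin-like growth factors, differed by -0.27 ± 0.14 (-0.38 ± 0.19), and the growth factor IGF2 by -0.89 ± 0.29 (-1.39 ± 0.56). IGF2 stood at 2128, 1854, 1217 and 1745 and 837, 1617, 595 and 877, with overlap through sheep 230, and its level in theca cells was higher, at 8356 ± 1956 (SD, n = 5) in controls. FOXO3, a transcription factor that insulin signalling keeps out of the nucleus, differed by -0.45 ± 0.17 (-0.23 ± 0.28). Of 36 tested insulin and IGF genes, 14 lay above 0 with all libraries (median -0.040) and 8 without sheep 209 (median -0.15). Of the list 4 and 3 members were lower at an unadjusted p under 0.05 and 0 higher, against 3.04% and 4.96% of all genes on the lower side.

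Hormones and enzymes of the growing follicle spread so widely within each group that group differences could not be resolved. CYP19, aromatase, stood at 1767, 43.4, 278 and 109 in controls and 75.4, 202, 319.8 and 4069 in prenatal T animals, highest in control 244 and prenatal T sheep 315. INHBA, the activin and inhibin βA subunit, stood at 51113, 3087, 16190.0 and 2807 and 5293, 11825, 19596 and 60870.0, and was again highest in these 2 animals. Their differences without sheep 209 were 0.77 ± 1.36 (-2.29 to 3.83) and 0.84 ± 1.02 (-1.45 to 3.14). CYP11A1, which starts steroid synthesis from cholesterol, stood at 1576, 1114, 478 and 554 and 1949.8, 558, 591 and 5014, and the carrier STAR at 363, 319, 209 and 279 and 234, 98.9, 95.1 and 1853. Sheep 315 was the highest of all libraries in both, and the differences were 0.70 ± 0.70 (-0.89 to 2.28) and -0.18 ± 0.83 (-2.05 to 1.70). With all libraries the 4 genes differed by -0.95 ± 2.13, -0.28 ± 1.48, -1.38 ± 2.17 and -0.25 ± 0.79.

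AMH, made by small growing follicles, stood at 3453, 2629, 6293 and 5386 in controls and 4801, 4056, 7774 and 3652 in prenatal T animals, a difference of 0.21 ± 0.32 (-0.50 to 0.92). Its receptor AMHR2 differed by -0.36 ± 0.21 (-0.83 to 0.11), INHA, the inhibin alpha subunit, by 0.41 ± 0.53 (-0.78 to 1.61) and follistatin FST, which binds activin, by 0.18 ± 0.35 (-0.62 to 0.97). The groups overlapped for each. The transcription factors FOXL2 and NR5A2, which hold granulosa identity and steroid synthesis, differed by 0.016 ± 0.26 (-0.58 to 0.61) and 0.32 ± 0.28 (-0.31 to 0.94), and the vessel growth factor VEGFA by 0.58 ± 0.34 (-0.18 to 1.35). With all libraries the differences were -2.24 ± 2.45 for AMH, -0.67 ± 0.38 for AMHR2, -1.80 ± 2.25 for INHA, -1.48 ± 1.67 for FST, -1.46 ± 1.49 for FOXL2, -0.70 ± 1.04 for NR5A2 and 0.33 ± 0.41 for VEGFA.

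Of 21 tested steroidogenic genes, HSD17B12, a reductase of fatty acid and steroid synthesis, was the 1 at an unadjusted p under 0.05 in either fit. It stood at 193, 197, 204 and 237 in controls and 224, 318, 351 and 291 in prenatal T animals, with 337 in sheep 209, and differed by 0.54 ± 0.18 (0.49 ± 0.17 without sheep 209). Among 27 tested genes of the FSH and cyclic AMP response, adenylate cyclase ADCY9 stood at 2584, 2717, 2411 and 3460.4 and 2341, 2122, 1827 and 1435, with 755 in sheep 209, and differed by -0.54 ± 0.17 (-0.81 ± 0.31) with no overlap. The kinase anchor AKAP12 differed by -0.58 ± 0.21 (-1.24 ± 0.68). The list had 2 members higher and 3 lower at an unadjusted p under 0.05 without sheep 209, and 0 and 1 with it. Its median was 0.083 without sheep 209 and -0.037 with all libraries. Over all genes 1.96% were higher and 4.96% lower at that threshold without sheep 209, and 1.18% and 3.04% with all libraries.

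**Figure D4:**
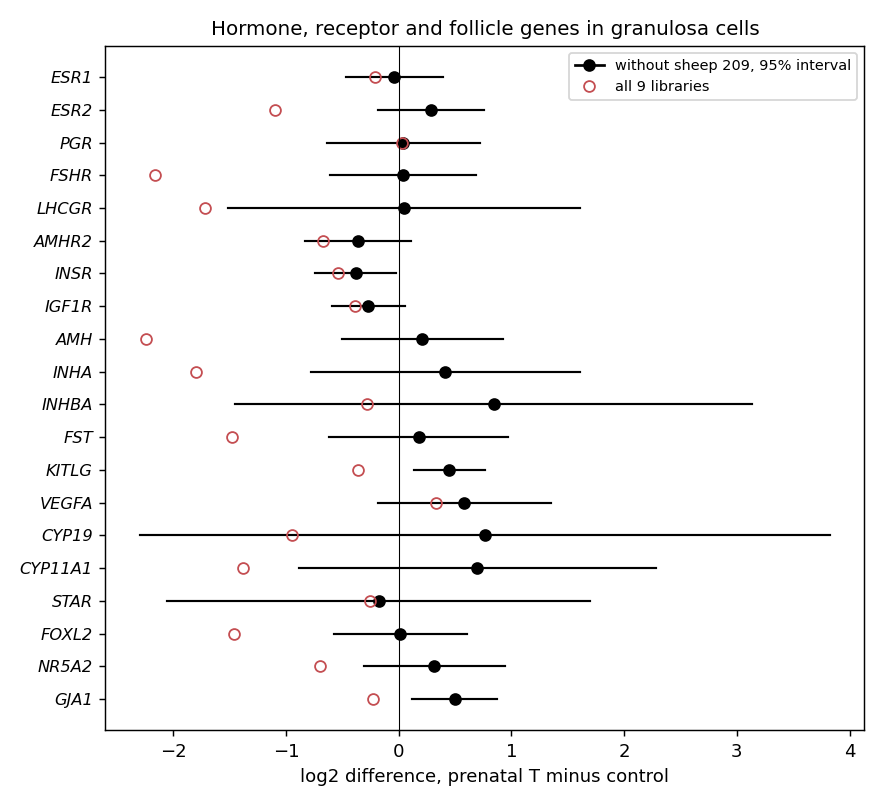
Log2 difference, prenatal T minus control, of 20 hormone, receptor and follicle genes, with filled points and 95% intervals for the fit without sheep 209 and open points for all 9 libraries. Without sheep 209 the intervals of KITLG and GJA1 lie above 0 and that of INSR below it, none of them past the adjusted threshold, and the widest intervals are those of CYP19 and INHBA.

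Most genes of Wnt signalling, which guides follicle growth and steroid synthesis, lay below 0 in both fits. Of 39 tested, 10 lay above 0 with all libraries and 11 without sheep 209, with a median of -0.26 in each. AXIN2, a feedback inhibitor and common readout of Wnt and β-catenin signalling, stood at 762, 635, 645 and 973 in controls and 431, 560.4, 432 and 477 in prenatal T animals, with 307 in sheep 209, and differed by -0.77 ± 0.20 (-0.65 ± 0.16 without sheep 209). LRP5, a Wnt coreceptor, stood at 4174, 4336, 3989.9 and 3871 and 3175, 3261, 3738 and 3269, with 2823 in sheep 209, and differed by -0.34 ± 0.11 (-0.29 ± 0.094). Neither gene overlapped between the groups. TCF7L2, the transcription factor that β-catenin binds, differed by -0.52 ± 0.16 (-0.53 ± 0.16) and overlapped through sheep 210. At an unadjusted p under 0.05, 6 members were lower and 0 higher with all libraries, against 3.04% and 1.18% of all genes. Without sheep 209 there were 8 and 1, against 4.96% and 1.96%.

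TGFBR1, the type I receptor of TGF-beta, stood at 1414, 1547, 1517 and 1455 in controls and 1756, 1775, 1814 and 1810.5 in prenatal T animals, with 1609 in sheep 209. The difference was small, 0.24 ± 0.09 (0.27 ± 0.081 without sheep 209), and the groups did not overlap. SKI, a corepressor of the same pathway, differed by -0.25 ± 0.088 without sheep 209 and -0.11 ± 0.16 with it. Of 40 tested TGF-beta, BMP and activin genes, 17 lay above 0 with all libraries and 18 without sheep 209 (medians -0.063 and -0.055). At an unadjusted p under 0.05, 1 was higher and 1 lower with all libraries, and 1 and 3 without sheep 209, against 1.96% and 4.96% of all genes in the latter fit. Of 33 Notch genes, 18 lay above 0 with all libraries (median 0.036) and 14 without sheep 209 (median -0.15). At the same threshold 2 and 3 were lower and 0 higher, against 3.04% and 4.96% of all genes on the lower side. Among those lower was DTX3 (-0.60 ± 0.18, -0.90 ± 0.35 with all libraries), a Deltex ubiquitin ligase.

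Among 15 Eph receptors and ephrins, EPHA4 stood at 415, 339, 276 and 375 in controls and 275, 253, 183 and 122 in prenatal T animals, with 585 in sheep 209, and differed by -0.80 ± 0.26 without sheep 209 (-0.49 ± 0.40 with it). In this list 1 member was lower at an unadjusted p under 0.05 with all libraries and 3 without sheep 209, EPHB4 among them, and 0 were higher, against 3.04% and 4.96% of all genes on the lower side. With all libraries 8 of 15 lay above 0 (median 0.16), and without sheep 209 4 did (median -0.18).

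Collagens and basal lamina genes were lower in value in prenatal T animals. Without sheep 209, 33 of 33 lay below 0 with a median of -0.43, and 14 had an unadjusted p under 0.05, all lower. With all libraries 25 of 33 lay below 0 (median -0.59), with 7 lower and 0 higher at that threshold. Over all genes 4.96% were lower at it without sheep 209 and 3.04% with all libraries. COL1A1 stood at 30780.0, 28281, 28691 and 12589 in controls and 7248, 13710.0, 8116 and 12277 in prenatal T animals, with 3337 in sheep 209, a difference of -1.25 ± 0.32 (-1.56 ± 0.44). Control 224 reached into the prenatal T values for COL1A1 and for COL1A2, which differed by -1.25 ± 0.33 (-1.31 ± 0.32). These fibrillar collagens are products of theca and stroma, and in the theca libraries of controls they stood at 361200.0 ± 63937 (SD, n = 5) and 198300.0 ± 26078 (SD, n = 5).

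Theca markers had 7 of 20 members lower at an unadjusted p under 0.05 with all libraries and 8 without sheep 209, and 0 higher. Over all genes 3.04% and 4.96% were lower at that threshold. The medians of the list were -0.80 and -0.38. The 2 lists share COL1A1 and COL1A2, and theca RNA in the granulosa samples and expression by granulosa cells cannot be told apart here. COL4A3, a basal lamina collagen, was higher in value in granulosa than in theca cells, at 1458 ± 409.9 (SD, n = 5) in theca controls. In granulosa cells it stood at 3828, 4318, 3571 and 4002 in controls and 3177, 2823, 3403 and 1787 in prenatal T animals, with 19.6 in sheep 209, a difference of -0.53 ± 0.19 (-1.94 ± 1.41). Its groups did not overlap, and it was chosen after its values were seen. MYH11, the myosin of smooth muscle, stood at 24827, 37684, 23635 and 27397 and 23419, 21101, 16363 and 11242, with 4637 in sheep 209, against 99729 ± 28077 (SD, n = 5) in theca controls. Its difference was -0.68 ± 0.25 (-1.06 ± 0.45), 1 of 2 smooth muscle markers lower at an unadjusted p under 0.05 among 13.

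Most glycolysis and hypoxia genes lay above 0, HK2 and GPI among them. Of 34 tested, 26 lay above 0 with all libraries (median 0.40) and 30 without sheep 209 (median 0.24). At an unadjusted p under 0.05, 6 were higher and 2 lower with all libraries, against 1.18% and 3.04% of all genes. Without sheep 209 there were 10 and 2, against 1.96% and 4.96%. ADM, adrenomedullin, a vasodilator peptide and target of hypoxia signalling, went the other way. It stood at 12889, 12367, 4581 and 6584 in controls and 2624, 4621, 2598 and 3439.9 in prenatal T animals, with 184 in sheep 209, and differed by -1.37 ± 0.34 (-2.19 ± 0.88). Sheep 230 overlapped with control 268, and DESeq2 without sheep 209 gave an adjusted p of 0.0201.

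Oxidative phosphorylation subunits had 27 of 32 members above 0 with all libraries (median 0.11) and 32 of 32 without sheep 209 (median 0.18). The 2 with an unadjusted p under 0.05 in the latter fit were ATP5MC3, a membrane subunit of ATP synthase, and NDUFA9 of complex I. Their differences were 0.32 ± 0.14 and 0.30 ± 0.13 (0.31 ± 0.13 and 0.28 ± 0.13 with sheep 209). Over all genes 1.96% were higher at that threshold without sheep 209. Aminoacyl-tRNA synthetases, which charge tRNAs with amino acids, had 17 of 20 above 0 with all libraries and 14 without sheep 209. FARSB differed by 0.46 ± 0.15 (0.35 ± 0.18), WARS by 0.32 ± 0.14 (0.46 ± 0.20) and EPRS by 0.28 ± 0.13 (0.35 ± 0.15), and all 3 overlapped between the groups. Unfolded protein and heat shock genes had 25 of 32 above 0 with all libraries (median 0.33) and 24 without sheep 209 (median 0.18). At an unadjusted p under 0.05 there were 0 in either fit, against 4.22% and 6.91% of all genes.

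Nearly every gene of DNA replication and division lay above 0 without sheep 209, by small amounts. In S phase genes 37 of 37 lay above 0 (median 0.38), and in mitosis genes 37 of 38 (median 0.28). With all libraries 27 of 37 (0.090) and 18 of 38 (-0.0014) did. The mean log2 level of S phase genes was 8.34 in control 246, 9.31 to 9.69 in the other controls and 9.24 to 10.02 in prenatal T animals without sheep 209. With 1 further library left out or with TMM scaling, the medians without sheep 209 ran from 0.082 to 0.55 and from 0.10 to 0.45. MCM6 of the replicative helicase stood at 1628, 916, 2249 and 2013 in controls and 1795, 3285, 3565 and 2001 in prenatal T animals, with 1353 in sheep 209, a difference of 0.66 ± 0.32 (0.48 ± 0.35). Sheep 230 and 276 were highest and control 246 lowest, and the groups overlapped. The mitotic kinase CDK1 and the cytokinesis protein ANLN differed by 0.48 ± 0.22 and 0.45 ± 0.23 (0.23 ± 0.32 and 0.24 ± 0.30). Within the set of lower snoRNA share MCM6, CDK1 and ANLN differed by -0.12, -0.08 and -0.031. Within the other set, without sheep 209, they differed by 1.64, 0.82 and 0.81.

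Most enzymes that write and remove chromatin marks lay below 0. Of 49 tested, 15 lay above 0 with all libraries and 10 without sheep 209 (medians -0.14 and -0.12). At an unadjusted p under 0.05, 5 and 10 were lower, against 3.04% and 4.96% of all genes, and 0 higher. The histone H3 lysine 4 methyltransferase SETD1B stood at 2669, 2341, 2353 and 2350.5 in controls and 2156, 1780.0, 1755 and 1912 in prenatal T animals, with 2185 in sheep 209, a difference of -0.31 ± 0.11 (-0.36 ± 0.10 without sheep 209) with no overlap. KMT2B, of the same activity, differed by -0.33 ± 0.10 (-0.24 ± 0.13), and the acetyltransferase KAT2B by -0.50 ± 0.13 (-0.43 ± 0.15). Without sheep 209, 7 members lay below the controls with no overlap and 0 above, against 2.68% and 1.15% of all genes.

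Interferon response genes, which restrict viruses, stood apart through single animals. All 26 tested members lay above 0 in both fits, with medians of 1.26 and 0.98. The mean log2 level of the list was 12.00 in sheep 315 and 9.78 in sheep 209, against 6.58 to 7.63 in the other 7 libraries, and without sheep 209 and 315 the median was 0.017. IFI6 stood at 428, 642, 861 and 718 in controls and 1764, 1017, 503 and 66481 in prenatal T animals, with 1181 in sheep 209, a difference of 1.87 ± 1.24 (2.12 ± 1.29). The RNA sensor kinase EIF2AK2 stood at 591, 509, 599 and 587 and 687, 708, 755 and 6879, with 1782 in sheep 209. Its groups did not overlap even in the 3 prenatal T animals outside these high libraries, and it differed by 1.24 ± 0.64 (1.14 ± 0.67). STAT2, which carries the interferon signal to the nucleus, differed by 0.52 ± 0.17 without sheep 209 (0.27 ± 0.30 with it).

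Immediate early genes, which respond within minutes to stimuli and to tissue handling, had 25 of 30 members above 0 with all libraries (median 0.83) and 21 without sheep 209 (median 0.28). Their mean log2 level was 10.73 in sheep 209, against 7.03 to 8.74 in the other libraries. DUSP1, a phosphatase of MAP kinases, stood at 481, 531, 399.7 and 339 in controls and 783, 521, 613 and 1074 in prenatal T animals, with 4335 in sheep 209, a difference of 0.74 ± 0.24 (1.26 ± 0.56). The tight junction protein TJP1 stood at 6015, 7173, 6048 and 6455 and 5809, 5584, 4919 and 4986, with 5259 in sheep 209, a difference of -0.27 ± 0.11 (-0.27 ± 0.11) with no overlap. Epithelial markers had 10 of 11 above 0 with all libraries (median 0.97) and 7 without sheep 209 (median 0.18). At an unadjusted p under 0.05 there were 0 in either fit, against 4.22% and 6.91% of all genes.

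Apoptosis and atresia genes (26 tested) had a median of 0.070 with all libraries and -0.0048 without sheep 209, cholesterol synthesis genes (23) 0.045 and 0.15, and oocyte markers (7) -0.59 and -0.13. None of these lists had a member at an unadjusted p under 0.05 in either fit. The share of all genes at that threshold was 4.22% with all libraries and 6.91% without sheep 209.

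**Figure D5:**
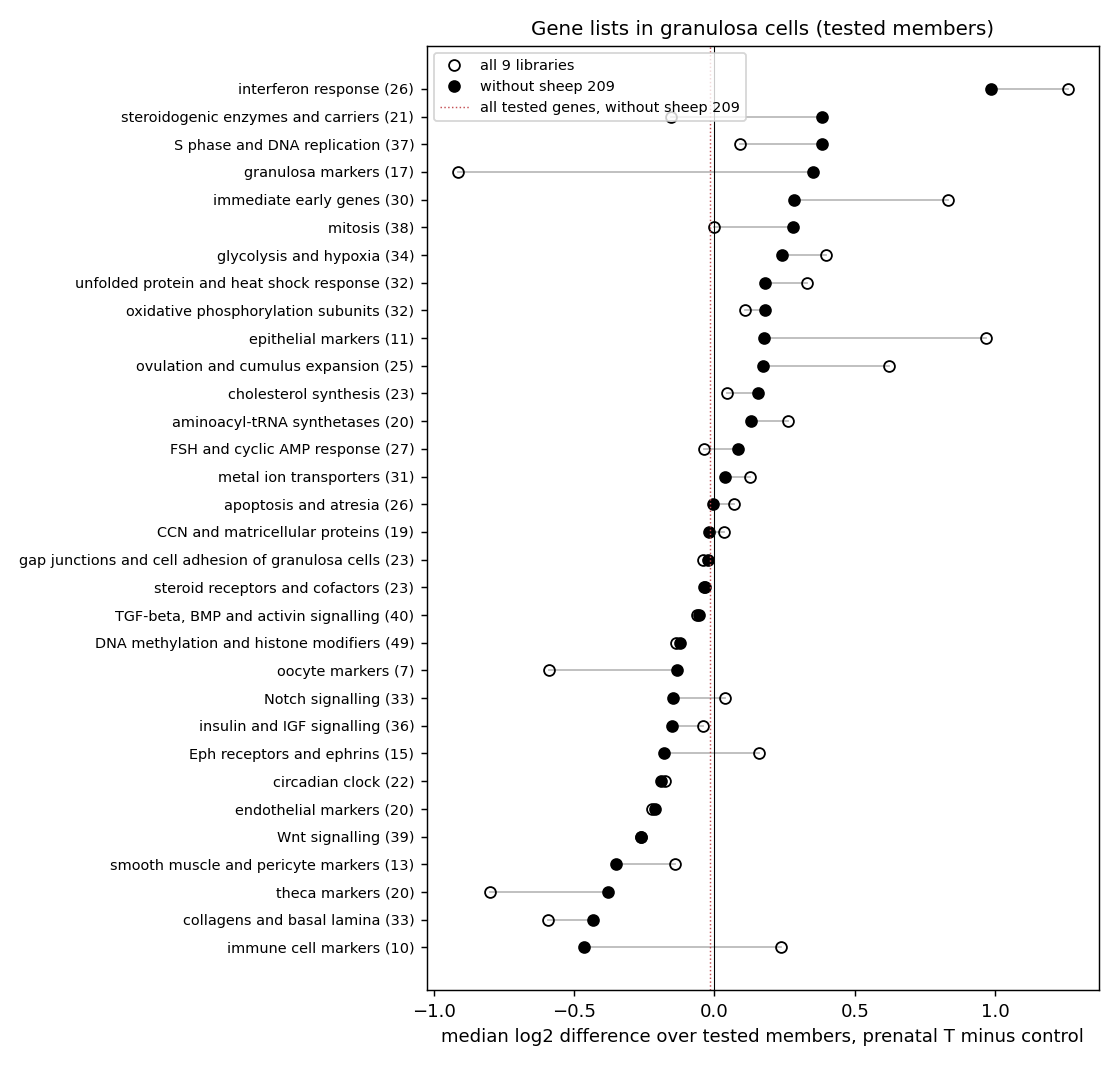
Median log2 difference, prenatal T minus control, over the tested members of 32 gene lists (their number in parentheses), with open points for all 9 libraries, filled points without sheep 209, and a dotted line for the median of all tested genes without sheep 209. Lists with a median below 0 in both fits include those of Wnt, clock, chromatin and collagen genes and of theca, endothelial and smooth muscle markers. Granulosa markers, whose lack set sheep 209 apart, move from -0.92 to 0.35 when it is left out.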

How the data were processed

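The deposited table holds normalized counts (a signal per gene and library). Per the submitters' processing notes, the authors checked reads with FastQC 0.11.5 and MultiQC 0.9, and used STAR 2.6.0c, Subread 1.6.1 with featureCounts, and DESeq2. For the genome build the sources used here give no name. Each granulosa library's values were whole multiples of its smallest value (100% of values, tolerance 1e-06), so division gave back reads. The labels list 5 control granulosa samples, of which that of sheep 139 was not analysed here. All columns had a sample (0 without). Each animal gave 1 library per layer, and no 2 granulosa columns were identical.

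A gene was tested if it reached 10 in 5 or more granulosa libraries. limma 3.58.1 in R 4.3.3 was fitted to log2 (value plus 1), trended on the mean, two-sided, with Benjamini-Hochberg adjustment over all genes tested and a threshold of 0.05, with and without sheep 209. A fold on this scale understates that of low genes. Recovered reads went into edgeR 4.0.16 by quasi-likelihood and into DESeq2 1.42.0. An alternative put both layers in 1 model with the animal, which gave both samples, as a replicate block, estimated by duplicateCorrelation (consensus correlation 0.641). This model also tested the difference between the layers. The fit with the sets of snoRNA share (above and below 0.1%) and the layer difference were added after the data were seen. The scripts were tested on simulated data.

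Named genes had a symbol and a mean of at least 50. They were the 10 of smallest p in each direction with and without sheep 209, and those past the threshold in these fits or with the block. Also named were 20 fixed follicle genes. From each list came up to 3 members of smallest unadjusted p in the limma fit without sheep 209. Such members were picked by their p and do not stand for their list. Some results are not reported here. The members compared, the 32 lists (7 of cell type markers, 25 of functions) and these genes were chosen with earlier results of these data known, so no list is independent evidence. Lists are described by counts and medians without a test. Python 3.11.15, pandas 2.3.3 and matplotlib 3.10.9 made tables and figures.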

Additional observations from a re-analysis of the deposited data

Results flagged for a closer look

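Libraries that stood far from the rest of their group were looked for in each named gene, separately in the 4 controls, the 5 prenatal T animals and the 4 without sheep 209, by Dixon's gap test at 95%, which marks about 1 in 20 groups by chance. Of 273 such groups 37 were marked, and 24 of them were marks of sheep 209. That library was set apart by its lack of follicle markers, and many named genes were picked by their p without it. Its marks are therefore not independent of how it and these genes were chosen, and cannot be set against the number marked by chance.

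Among genes of the follicle, sheep 209 stood apart as the lowest prenatal T library for AMH, FSHR and CYP11A1, each at 0, and for ESR2 (1.15), INHA (8.05), FOXL2 (36.8), FST (43.7), SLC35G1 (110.5), KITLG (148.4), NR5A2 (234.7), AKAP12 (535.1), GJA1 (1729) and VCAN (6757). It was also the lowest for COL4A3 (19.6), ADAMTS3 (21.86), CPM (23.0), ADM (184.1), ZDHHC14 (286.5), CLCN5 (300.3) and TGFBR1 (1609). It was the highest for CTTNBP2 (1045), TAGAP (1873), NCOA3 (3703) and PLEK (17267).

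Sheep 315 stood apart as the highest prenatal T library for IFI6 (66481) and, without sheep 209, for EIF2AK2 (6879). Without sheep 209, sheep 210 was the highest for INSR (9016) and IGF1R (16466), near the controls, and sheep 276 the lowest for CCN3 (74.49). Among controls, sheep 244 stood apart for KITLG (1724, lowest), SETD1B (2669, highest) and STAT2 (3155, highest), and sheep 246 for EIF2AK2 (508.8, lowest). Control 268 did so for NCOA3 (2181, lowest) and FARSB (1068, highest), and control 224 for COL1A1 (12589, lowest) and COL1A2 (7239, lowest).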

How the results depend on the processing

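With limma on the granulosa libraries, 0 genes passed the adjusted threshold under each pseudocount, filter, weighting, scaling and leave-one-out fit with all libraries (0 to 0 over the libraries left out), and without sheep 209 under each but the fit with no filter on low values, where 1 passed (EYA4). DESeq2 called 16 genes and 32 without sheep 209, and edgeR 0 in both. The 1 model of both layers called 1 gene with the replicate block and 1 without it, and 3 and 3 without sheep 209. The cause of these differences was not tested. Genes at an unadjusted p under 0.05 numbered 280 without control 244, 367 without control 224, 1018 without sheep 209 and 1320 with array quality weights, against 622. The count of genes with groups that do not overlap went from 106 to 169 on the higher and from 249 to 394 on the lower side without sheep 209, where fewer libraries need to separate.

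Of the 91 named genes, 72 kept the sign of their difference in all 21 alternatives with all libraries and 82 in all 20 without sheep 209. The others turned in at least 1. Named genes other than the 20 fixed ones were picked by their p in these data or after their values were seen. Such genes tend to keep their sign when most of the same libraries are fitted again, so these counts are not independent evidence. With DESeq2 the log2 differences were 0.18 for KITLG, 0.24 for GJA1, 0.64 for SLC35G1, 0.23 for LHCGR, 0.075 for INHA, 0.13 for INHBA, 0.80 for CYP19, 0.83 for CYP11A1, 0.79 for STAR and 0.24 for ADAMTS3, and without sheep 209 1.01 for STAR and -0.013 for FOXL2. With edgeR they were, in that order, 0.19, 0.26, 0.65, 0.25, 0.088, 0.15, 0.83, 0.86, 0.81 and 0.25, and 1.01 and -0.018. With array quality weights they were 0.40 for KITLG, 0.39 for GJA1, 0.68 for SLC35G1, 0.17 for ESR2, 0.068 for INHA, 0.62 for INHBA, 0.11 for CYP19, 0.49 for CYP11A1, 0.24 for NR5A2 and 0.41 for ADAMTS3, and -0.050 for FOXL2 without sheep 209. With the snoRNA sets they were 0.086 for ESR1, -0.10 for PGR and 0.093 for INHBA, and without sheep 209 0.18 for ESR1, -0.088 for PGR and -0.48 for LHCGR. The cause was not tested.

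Over the libraries left out in turn, with all libraries at the start, the differences ran from -0.64 to 0.45 for KITLG, -0.50 to 0.50 for GJA1, -0.61 to 0.89 for SLC35G1, -1.53 to 0.29 for ESR2, -0.15 to 0.22 for PGR, -2.88 to 0.038 for FSHR, -2.65 to 0.049 for LHCGR, -3.02 to 0.21 for AMH, -2.60 to 0.41 for INHA, -1.04 to 0.84 for INHBA, -2.23 to 0.77 for CYP19, -2.37 to 0.70 for CYP11A1, -0.99 to 0.082 for STAR, -1.92 to 0.016 for FOXL2, -0.99 to 0.32 for NR5A2, -0.052 to 0.58 for VEGFA, -2.05 to 0.18 for FST and -0.79 to 0.53 for ADAMTS3. Without sheep 209 they ran from -0.18 to 0.090 for ESR1, -0.14 to 0.29 for PGR, -0.19 to 0.34 for FSHR, -0.62 to 0.46 for LHCGR, -0.016 to 0.41 for AMH, -0.38 to 1.76 for CYP19, -1.13 to 0.29 for STAR, -0.22 to 0.22 for FOXL2 and -0.10 to 0.40 for FST.

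The groups hold 4 and 5 animals, and the effect of depth was not tested. Each library pools several follicles, and follicle stage could not be matched between animals. Fewer cells of a type and less RNA per cell cannot be told apart.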
